A study of Mus musculus with 66 samples.

Results

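Ion channels, ion pumps and neurotransmitter receptors were followed in the mouse cerebellum from weaning age to old age and under caloric restriction (CR). The genes were taken by symbol: a probe of the array entered when it carried exactly 1 gene symbol that belonged to 1 of 15 families, which are the potassium, sodium, calcium, chloride, hyperpolarization-activated and TRP channels, the ionotropic and metabotropic glutamate receptors, the GABA-A, GABA-B and nicotinic acetylcholine receptors, the ryanodine and inositol trisphosphate receptors, and the sodium-potassium and calcium pumps. Probes of a gene were averaged. This gave 16 genes on 20 probes, of 3905 genes with such a probe and 8448 probes in all, and the rule uses no measured value. The cerebella came from C57BL/6 mice, 1 mouse per array on 66 arrays, and radioactively labelled copies of total RNA were hybridized to a cDNA filter. Mice fed ad libitum (AL) were 17 to 21 days old (5 mice), 33 to 44 days old (5 mice), 6 months (10 mice), 16 months (10 mice) or 24 months old (9 mice). Mice on CR, which began in young adulthood and was deepened in steps on a fortified feed, were 6 months (9 mice), 16 months (10 mice) or 24 months old (8 mice). The 3 CR males of 24 months were all 673 days old, against 719 to 743 days in the AL males of 24 months. In every comparison of diets that uses these mice, diet and age thus differ together in the males. The groups held 31 males and 35 females, the labels name no transgene or other treatment, and the 2 youngest groups had no CR counterpart.

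In neurons, potassium channels set the resting potential and end the action potential, voltage-gated calcium channels turn depolarization into a calcium signal, and the sodium-potassium pump restores the ion gradients that firing runs down. Purkinje cells, the output neurons of the cerebellar cortex, fire spontaneously at high rates, so the cerebellum depends strongly on this machinery. Chloride transporters of endosomes and lysosomes, TRP channels and inositol trisphosphate receptors act in many cell types, where they serve acidification, the sensing of stress and magnesium, and calcium release from the endoplasmic reticulum.

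Only part of these families was analysed here. The 6 potassium channel symbols were Kcng1, Kcnh1, Kcnh3, Kcnk6, Kcns3 and Kcnq1ot1, of which the last is not a channel but a long noncoding RNA of the imprinted Kcnq1 locus. The calcium channel subunits Cacna1d and Cacna2d1, the chloride transporters Clcn3 and Clcn7, the TRP channels Trpm2 and Trpm7, the nicotinic receptor subunit Chrna5, the inositol trisphosphate receptor Itpr2 and the pump subunits Atp1b1 and Atp1b2 made up the other families. No gene of 8 of the 15 families was analysed here: the sodium channels, hyperpolarization-activated channels, both classes of glutamate receptor, both classes of GABA receptor, the ryanodine receptors and the calcium pumps. Another 3 probes carried a matching symbol together with that of an unrelated gene and were left out. Of the 8448 probes, 3448 carried no symbol, so a family without a gene here may still have been on the array.

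Each value is a z score, the distance of a probe from the mean of its array in units of the array's standard deviation, and each effect below is a difference of z scores between groups of mice with its standard error. The arrays fell into an early set of 24 and a late set of 42 by the running number in the labels, and 98.9% of the first principal component, which held 44.6% of the variance, lay between these sets. All 8 groups of diet and age had arrays in both sets, but 2 of the 16 fitted groups of diet, sex and age (AL males of 17 to 21 days and AL females of 33 to 44 days) had late arrays only. The set was a term of the fits that use all arrays. A further 7 arrays stood apart, with a median correlation to their own set of 0.683 to 0.886 against 0.908 to 0.964 for the others: 3 in the CR group of 16 months, 2 in the AL group of 6 months and 1 each in the CR groups of 6 and 24 months. On a layout of zones and slots inferred from the row order, deviations of probes at the same slot of adjoining zones moved together (correlation 0.527). For many of the differences the value is also given after subtracting the median deviation at that slot in nearby zones (the correction for place). It brought that correlation to 0.0758, a fall in part built in, because the adjoining probe is among those whose median is subtracted. Of the lists of cell type markers, 13 granule neuron genes had 1 measured member (Cbln1), 12 Purkinje genes had 1 (Icmt), and 15 oligodendrocyte genes and 8 interneuron genes had 0, so the cell composition of the samples could hardly be checked. In whole tissue, fewer cells of a type and less RNA per cell cannot be told apart.

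None of the 16 genes passed the test in any of the 16 comparisons of age, diet and sex. The test was limma with Benjamini-Hochberg adjustment over 7565 features, which are gene means and probes without a single symbol, and 0 of these features passed either (0% in every comparison). At an unadjusted p under 0.05, 10 of the 256 pairs of gene and comparison were reached (3.91%), beside 5.99% of all pairs of feature and comparison. The 10 pairs came from 6 genes, Cacna1d, Atp1b1, Kcng1, Trpm7, Atp1b2 and Kcnh1. By comparison, the number of the 16 genes with p under 0.05 was 1 for 33 to 44 minus 17 to 21 days (5.86% of features), 0 for 6 months minus 17 to 21 days (3.09%), 1 for 6 months minus 33 to 44 days (10.7%), 2 for 16 minus 6 months (10.5%), 1 for 24 minus 16 months (1.52%) and 0 for 24 minus 6 months (16.4%) in AL mice. In CR mice it was 1 for 16 minus 6 months (5.51%), 2 for 24 minus 16 months (13.1%) and 1 for 24 minus 6 months (5.83%). For CR minus AL it was 0 at 6 months (1.24%), 0 at 16 months (7.67%) and 1 at 24 months (1.74%). No gene had non-overlapping values in any of 12 pairs of groups, and among all features this share was at most 0.767%. A rule modelled on the first steps of the study's selection asked for a z ratio (the difference over the standard deviation of all differences) beyond 1.5 in size, an unadjusted p under 0.05 and, in place of its filter on average intensity, a mean z above 0. A later step of that selection was not applied. Of the 16 genes 9 had a mean z above 0, beside 46.7% of features. The others, with Atp1b2 (mean z -0.216) and Kcnh1 (-0.632) among them, could not count whatever their differences. By this rule 1 gene counted in each of 4 comparisons: Cacna1d in 33 to 44 minus 17 to 21 days (2.27% of features) and in 6 months minus 33 to 44 days (2.99%), and Kcng1 in 16 minus 6 months (4.01%) and 24 minus 16 months (0.357%) in AL mice. It counted 0 genes in 6 months minus 17 to 21 days (1.37%) and in 24 minus 6 months (5.99%) in AL mice, and 0 in CR mice for 16 minus 6 months (1.85%), 24 minus 16 months (2.83%) and 24 minus 6 months (2.18%). Between diets and sexes it counted 0 genes as well, with 0.225%, 1.73%, 0.344% and 0.317% of features for CR minus AL at 6, 16 and 24 months and in the mean, 0.0397% for the interaction and 0.132% for sex. The comparisons share groups of mice, so their values are not independent of each other.

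**Figure D1:**
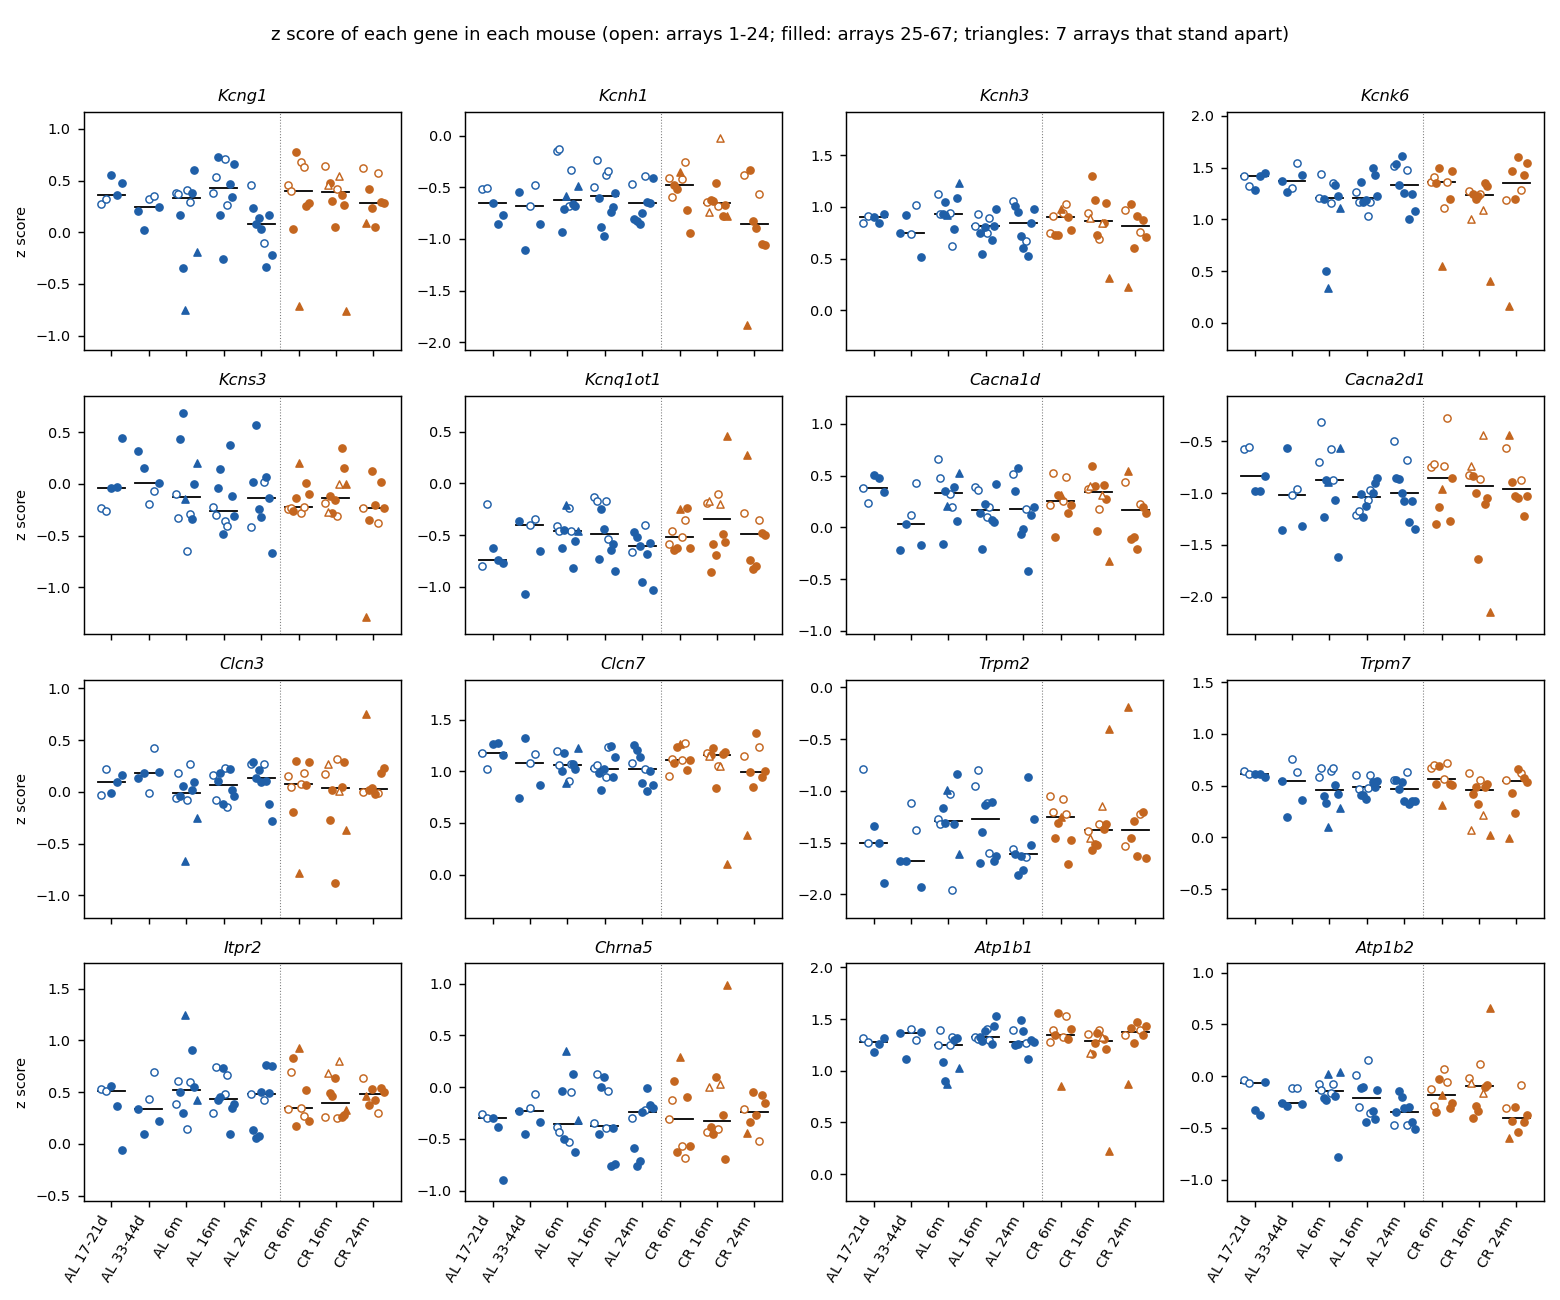
The z score (vertical axis, no unit) of each of the 16 genes in each of the 66 mice, by diet and age (horizontal axis, AL in blue and CR in orange), with a line at the median of each group; open points are the early arrays, filled points the late arrays and triangles the 7 arrays that stand apart. Groups overlap for every gene, and the most distant points of Kcnk6, Kcng1, Trpm2 and Atp1b1 are triangles.

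Between 17 to 21 days and 33 to 44 days, both calcium channel genes had lower means in the older mice, and theirs were the 2 differences farthest from 0 among the 16 genes, though neither passed the test. Cacna1d encodes the pore of an L-type calcium channel that opens at low voltages and supports pacemaking (chromosome 14, 30039941 to 30491156, GRCm38). Its z scores were 0.24, 0.34, 0.38, 0.48 and 0.51 in the 5 mice of 17 to 21 days and -0.22, -0.17, 0.03, 0.12 and 0.43 in the 5 mice of 33 to 44 days. Of the older 5 mice, 4 lay below all of the younger ones, and the groups overlapped through the mouse at 0.43. The difference of 33 to 44 days minus 17 to 21 days was -0.378 ± 0.149 (SE, adjusted p = 0.786), the smallest p among the 16 genes in a comparison in which 5.86% of all features had p under 0.05. It was -0.0350 in the early arrays and -0.593 in the late arrays, and -0.128 after the correction for place. The early arrays hold 2 females of 17 to 21 days and 2 males of 33 to 44 days, so age and sex cannot be told apart in the value from the early arrays. By 6 months the range of Cacna1d ran from -0.16 to 0.66 with a median of 0.335, and 6 months minus 33 to 44 days gave 0.277 ± 0.128 (SE, adjusted p = 0.434) beside 10.7% of features, and 0.0630 after the correction. With 1 mouse left out at a time, this second difference lay between 0.214 and 0.339.

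Cacna2d1 encodes the alpha2delta subunit that carries calcium channels to the membrane and binds gabapentin. Its values were -0.98, -0.98, -0.83, -0.57 and -0.55 at 17 to 21 days and -1.36, -1.32, -1.02, -0.96 and -0.56 at 33 to 44 days, with overlap. The difference was -0.228 ± 0.176 (SE, adjusted p = 0.932), which became -0.427 without the mouse at -0.56 and -0.0275 without the mouse at -1.36. In adult AL mice the levels ran from -1.62 to -0.31 with a median of -0.87 at 6 months, from -1.23 to -0.85 with a median of -1.04 at 16 months and from -1.35 to -0.50 with a median of -1.0 at 24 months. The 10 mice of 16 months lay closest together, and 16 minus 6 months was -0.184 ± 0.122 (SE, adjusted p = 0.570), with -0.492 in the early and 0.0217 in the late arrays. Over all groups, the late arrays minus the early arrays gave -0.358.

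Among the potassium channel genes Kcng1 had the smallest p in adult AL mice for 16 minus 6 and for 24 minus 16 months. These differences had opposite signs, and neither passed the test. Kcng1 encodes a silent subunit that forms no channel alone but changes the gating of the channels it joins (chromosome 2, 168260117 to 168281533, GRCm38). The 5 mice of 17 to 21 days had 0.27, 0.32, 0.36, 0.48 and 0.55 and the 5 of 33 to 44 days 0.02, 0.21, 0.24, 0.32 and 0.35. In adult AL mice the values ran from -0.75 to 0.60 with a median of 0.33 at 6 months, from -0.26 to 0.73 with a median of 0.425 at 16 months and from -0.34 to 0.46 with a median of 0.08 at 24 months. The medians of 6 and 16 months lay above that of 24 months, and all 3 ranges overlapped. The lowest value at 6 months came from an array that stood apart.

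For Kcng1, 16 minus 6 months was 0.268 ± 0.132 (SE, adjusted p = 0.467) in a comparison in which 10.5% of features had p under 0.05. It was 0.135 without the arrays that stand apart and 0.0181 after the correction for place. The step from 16 to 24 months was -0.318 ± 0.136 (SE, adjusted p = 1.00) where 1.52% of features had p under 0.05. Both array sets gave a similar value for this step, -0.290 and -0.357, and it was -0.337 without the arrays that stand apart. After the correction for place it was -0.0849, and place took away 81.2% of the variance of Kcng1 between mice of a group. The whole course over the 5 AL ages gave F = 2.16 (adjusted p = 0.654), the smallest p of the 16 genes where 8.49% of features had p under 0.05, and 24 minus 6 months gave -0.0505 ± 0.136 (SE, adjusted p = 0.891).

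Kcnk6, a tandem-pore channel of the background potassium conductance, lay lower at 6 months than at the youngest ages, by a difference that did not pass the test. Its values were 1.28, 1.32, 1.42, 1.42 and 1.45 at 17 to 21 days and 1.26, 1.30, 1.37, 1.43 and 1.54 at 33 to 44 days. At 6 months they ran from 0.34 to 1.44 with a median of 1.21, at 16 months from 1.03 to 1.5 with a median of 1.21 and at 24 months from 1.0 to 1.61 with a median of 1.33. The low end at 6 months rests on the mice at 0.34 and 0.50, of which the first was hybridized on an array that stood apart. The difference of 6 months minus 17 to 21 days was -0.306 ± 0.156 (SE, adjusted p = 0.954) beside 3.09% of features with p under 0.05, and -0.209 after the correction for place. After this correction 3 of the 16 genes had p under 0.05 in 6 months minus 17 to 21 days, beside 3.53% of features. They were Kcnk6, Clcn7 with -0.172 and Trpm7 with -0.0954 (adjusted p = 0.990 for each of the 3). From 33 to 44 days it was -0.287 ± 0.156 (SE, adjusted p = 0.509). The difference of 24 minus 6 months was 0.250 ± 0.130 (SE, adjusted p = 0.320), the smallest p of the genes where 16.4% of features had p under 0.05. It was 0.147 without the arrays that stand apart, and its F test over the 5 ages gave F = 1.57 (adjusted p = 0.754).

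Kcnh1 and Kcnh3 encode voltage-gated channels of the ether-à-go-go family. In AL mice Kcnh1 showed no difference between ages with p under 0.05: the medians from 17 to 21 days to 24 months were -0.65, -0.68, -0.62, -0.58 and -0.65, and the interval for 24 minus 6 months was -0.266 to 0.169. Kcnh3, which in the brain is best known from the forebrain, had 0.84, 0.84, 0.90, 0.91 and 0.93 in the youngest mice, the tightest group, and 0.52, 0.74, 0.75, 0.92 and 1.02 at 33 to 44 days. Its adult AL values ran from 0.62 to 1.23 with a median of 0.935 at 6 months, from 0.54 to 0.98 with a median of 0.815 at 16 months and from 0.53 to 1.06 with a median of 0.84 at 24 months. Both older groups had lower medians than the 6-month-old mice, with overlap: 16 minus 6 months gave -0.165 ± 0.0881 (SE, adjusted p = 0.495) and 24 minus 6 months -0.143 ± 0.0913 (SE, adjusted p = 0.428). After the correction for place these were -0.0258 and 0.0256.

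Kcns3, a further silent subunit, and the noncoding Kcnq1ot1 had wide and overlapping ranges. Kcns3 had AL group means of -0.0240, 0.0440, -0.0540, -0.172 and -0.123 in order of age, against a standard deviation between mice of 0.285, and its F test gave F = 0.895 (adjusted p = 0.921). It was 1 of 2 genes, with Chrna5, whose late arrays lay above the early ones, by 0.217. Kcnq1ot1 had -0.80, -0.77, -0.74, -0.62 and -0.20 at 17 to 21 days and -1.07, -0.65, -0.40, -0.36 and -0.34 at 33 to 44 days. In adult AL mice it ran from -0.82 to -0.21 with a median of -0.46 at 6 months, from -0.85 to -0.13 with a median of -0.49 at 16 months and from -1.03 to -0.40 with a median of -0.61 at 24 months, and 24 minus 16 months was -0.174 ± 0.118 (SE, adjusted p = 1.00). The sources used here do not say whether its spot tells it apart from Kcnq1, which it overlaps.

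The chloride transporters of endosomes (Clcn3) and of lysosomes (Clcn7) exchange chloride for protons and help to acidify these compartments. Clcn7 had 1.02, 1.16, 1.18, 1.26 and 1.27 at 17 to 21 days and 0.74, 0.87, 1.08, 1.17 and 1.32 at 33 to 44 days, so the younger mice lay inside the range of the older ones. The difference was -0.149 ± 0.137 (SE, adjusted p = 0.938). Its later AL medians were 1.06, 1.02 and 1.02, and the interval for 24 minus 6 months was -0.228 to 0.167. Clcn3 had -0.01, 0.13, 0.18, 0.19 and 0.42 at 33 to 44 days and ran from -0.67 to 0.27 with a median of -0.01 at 6 months, a difference of -0.233 ± 0.142 (SE, adjusted p = 0.545) that was 0.0579 after the correction for place. For 24 minus 6 months Clcn3 gave 0.168 ± 0.118 (SE, adjusted p = 0.485), and -0.0937 after the correction.

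Trpm2 is a calcium-permeable channel that ADP-ribose and oxidative stress open, and Trpm7 joins a magnesium and calcium channel to a kinase domain. Trpm2 ran from -1.96 to -0.84 with a median of -1.29 at 6 months, from -1.70 to -0.80 with a median of -1.27 at 16 months and from -1.81 to -0.87 with a median of -1.61 at 24 months in AL mice. The youngest mice had -1.89, -1.5, -1.5, -1.34 and -0.79, and those of 33 to 44 days -1.93, -1.68, -1.68, -1.38 and -1.12. Of the 3 adult AL medians the oldest mice had the lowest, which lay between the medians of the 2 young groups, and 24 minus 16 months was -0.172 ± 0.148 (SE, adjusted p = 1.00), with -0.482 in the early and -0.0179 in the late arrays. The mean of the 4 Trpm7 probes was nearly the same in all 5 mice of 17 to 21 days, 0.58, 0.608, 0.613, 0.615 and 0.637. The single probes did not share this level or tightness. In these mice their means were 1.51, -0.314, 1.57 and -0.318. Their standard deviations ran from 0.0885 to 0.148, against 0.0206 for the mean of the 4 probes. At 33 to 44 days the mean of the probes was 0.20, 0.36, 0.542, 0.63 and 0.755. At 6 months it ran from 0.102 to 0.67 with a median of 0.461. The youngest mice thus lay inside both other ranges, and the differences from them were -0.132 ± 0.103 (SE, adjusted p = 0.932) and -0.156 ± 0.0889 (SE, adjusted p = 0.954).

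Itpr2, a calcium release channel of the endoplasmic reticulum that in the brain is prominent in astrocytes, and Chrna5, an accessory subunit of nicotinic receptors, did not pass the test at any age. Itpr2 had -0.06, 0.37, 0.51, 0.53 and 0.56 at 17 to 21 days, 0.10, 0.22, 0.34, 0.43 and 0.70 at 33 to 44 days and ran from 0.14 to 1.25 with a median of 0.525 at 6 months, where the highest value came from an array that stood apart. The difference of 6 months was 0.222 ± 0.128 (SE, adjusted p = 0.954) from 17 to 21 days and 0.232 ± 0.128 (SE, adjusted p = 0.516) from 33 to 44 days, and these were 0.0626 and 0.00815 after the correction for place. Chrna5 had -0.90, -0.39, -0.30, -0.30 and -0.26 at 17 to 21 days and -0.45, -0.34, -0.23, -0.20 and -0.07 at 33 to 44 days, and 1 mouse at -0.90 lay far below the other 4 of its group. Its F test over the ages gave F = 0.492 (adjusted p = 0.970), and place took away 90.5% of its variance between mice, the most of the 16 genes.

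The beta subunits of the sodium-potassium pump, which bring the catalytic subunit to the membrane, differed in adult AL mice by amounts that did not pass the test. Atp1b1 is the more general beta subunit, strong in neurons, and Atp1b2 is the glial form, also known as an adhesion molecule (chromosomes 1 and 11, 164437099 to 164458355 and 69599728 to 69605978, GRCm38). The mean of the 2 Atp1b1 probes was 1.18, 1.25, 1.28, 1.32 and 1.32 at 17 to 21 days and 1.11, 1.30, 1.36, 1.38 and 1.40 at 33 to 44 days. It ran from 0.875 to 1.39 with a median of 1.25 at 6 months, from 1.26 to 1.52 with a median of 1.33 at 16 months and from 1.11 to 1.49 with a median of 1.27 at 24 months. The low values at 6 months had no counterpart at 16 months, and the upper parts of the ranges overlapped, and the difference was 0.183 ± 0.0881 (SE, adjusted p = 0.456). It was 0.0312 in the early and 0.285 in the late arrays, and 0.0461 after the correction for place. The difference of 24 minus 6 months was 0.143 ± 0.0913 (SE, adjusted p = 0.430), and -0.00868 after the correction. The same 3 mice, females 4 and 5 and male 5, had the lowest Atp1b1, Kcnk6 and Kcng1 values of the AL group of 6 months, an observation made after these values were seen, and 2 of their arrays stood apart.

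Atp1b2 had -0.38, -0.33, -0.07, -0.06 and -0.04 at 17 to 21 days and -0.29, -0.27, -0.26, -0.11 and -0.11 at 33 to 44 days. In adult AL mice it ran from -0.78 to 0.04 with a median of -0.145 at 6 months, from -0.44 to 0.16 with a median of -0.215 at 16 months and from -0.51 to -0.14 with a median of -0.35 at 24 months. The oldest mice had the lowest median, within the range of the younger adults. For 24 minus 16 months the difference was -0.142 ± 0.0893 (SE, adjusted p = 1.00) and for 24 minus 6 months -0.164 ± 0.0893 (SE, adjusted p = 0.343), and after the correction for place -0.186 and -0.108. The correction took away 4.05% of the variance of this probe between mice.

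**Figure D2:**
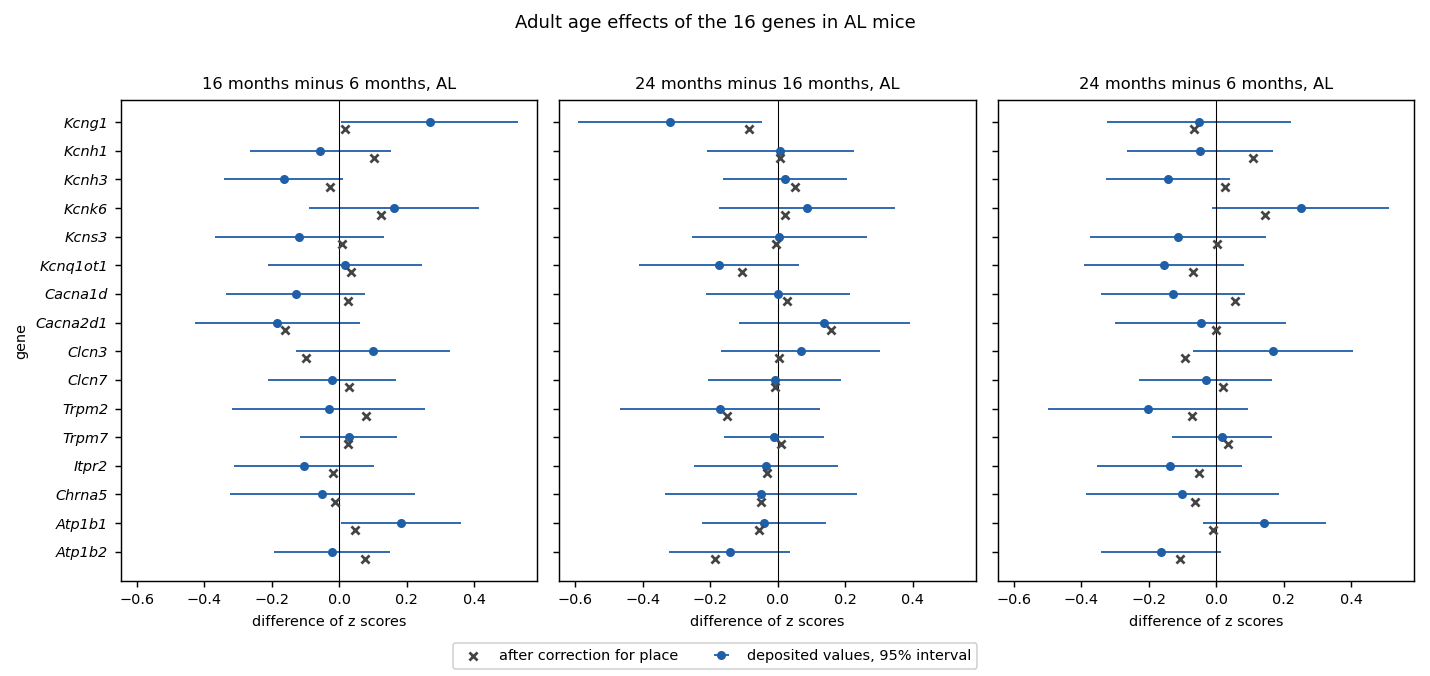
Differences of z scores between adult ages in AL mice (horizontal axis, no unit) for each of the 16 genes (vertical axis): points are the differences in the deposited values with their 95% intervals, and crosses the differences after the correction for place. The interval of Kcng1 leaves 0 for 16 minus 6 months and for 24 minus 16 months, that of Atp1b1 for 16 minus 6 months, and the crosses of both genes lie nearer to 0.

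Between 6 months and the later ages in AL mice, the direction of the 16 genes was mixed. For 24 minus 6 months 4 were higher and 12 lower with a median difference of -0.0754, beside 39.9% of all features higher and a median of -0.0372. For 16 minus 6 months 6 were higher and 10 lower, beside 39.3% of features higher. These counts shifted with the correction for place, after which 7 genes were higher and 9 lower for 24 minus 6 months (52.0% of features higher) and 11 higher and 5 lower for 16 minus 6 months (52.7% of features higher). The size of the difference in 24 minus 6 months was smaller with the correction for 13 of the 16 genes, beside 74.6% of features. The 95% intervals of single genes in this comparison reached 0.149 to 0.296 z to either side, without adjustment for the number of features. Smaller differences could not be told from 0 with this number of arrays, and larger ones can still miss the adjusted test.

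Over the 5 AL ages together, the F tests of the remaining genes had larger p values than that of Kcng1. Cacna1d gave F = 2.12 (adjusted p = 0.663) and Itpr2 F = 1.21 (adjusted p = 0.840). The pump subunits gave F = 1.20 (adjusted p = 0.840) for Atp1b1 and F = 1.09 (adjusted p = 0.869) for Atp1b2. For the other channels the values were F = 1.15 (adjusted p = 0.855) for Kcnh3, F = 1.10 (adjusted p = 0.867) for Cacna2d1 and F = 1.05 (adjusted p = 0.875) for Trpm2. Kcnq1ot1 gave F = 0.918 (adjusted p = 0.917) and Clcn3 F = 0.889 (adjusted p = 0.921), while Trpm7, Kcnh1 and Clcn7 had F values of 0.848, 0.700 and 0.512.

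Under CR the age comparisons gave the smallest p of any gene, for Atp1b2, again without passing. In CR mice Atp1b2 ran from -0.35 to 0.07 with a median of -0.18 at 6 months, from -0.40 to 0.66 with a median of -0.0950 at 16 months and from -0.60 to -0.09 with a median of -0.405 at 24 months. The oldest CR mice had the lowest median, and the mice at 0.66 and -0.60 were hybridized on arrays that stood apart. For 24 minus 16 months the difference was -0.287 ± 0.0934 (SE, adjusted p = 0.268) beside 13.1% of features with p under 0.05, and -0.206 without the arrays that stand apart. It was -0.168 in the early and -0.345 in the late arrays, and -0.144 after the correction for place. For 24 minus 6 months in CR mice it was -0.184 ± 0.0960 (SE, adjusted p = 0.811). Side by side, AL and CR mice had 24 minus 16 months differences of -0.142 and -0.287.

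The median of Kcnh1 was lowest in the oldest CR mice. It ran from -0.94 to -0.26 with a median of -0.48 at 6 months, from -0.78 to -0.02 with a median of -0.655 at 16 months and from -1.83 to -0.33 with a median of -0.86 at 24 months. The value of -1.83 came from the array of that group that stood apart, and the next lowest mouse had -1.06. For 24 minus 6 months the difference was -0.292 ± 0.117 (SE, adjusted p = 0.811) beside 5.83% of features, and for 24 minus 16 months -0.232 ± 0.113 (SE, adjusted p = 0.374). Without the female CR mouse at -1.83 these were -0.180 and -0.119. In the early arrays, which held 2 of the 8 mice, they were -0.0550 and 0.0450, and after the correction for place -0.218 and -0.158.

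Trpm7 ran from 0.31 to 0.723 with a median of 0.562 in CR mice of 6 months and from 0.0250 to 0.62 with a median of 0.456 at 16 months. The 16-month-old mice included 3 on arrays that stood apart, all in the lower part of the range. The difference was -0.197 ± 0.0738 (SE, adjusted p = 0.823) beside 5.51% of features, -0.0888 without those arrays and -0.0362 after the correction for place. The other genes named for the CR age comparisons were Atp1b1 with -0.154 ± 0.0909 (SE, adjusted p = 0.997), Cacna2d1 with -0.168 ± 0.126 (SE, adjusted p = 0.997) and Kcnq1ot1 with 0.142 ± 0.118 (SE, adjusted p = 0.997) for 16 minus 6 months. For 24 minus 16 months they were Kcns3 with -0.240 ± 0.136 (SE, adjusted p = 0.435) and Atp1b1 with 0.167 ± 0.0954 (SE, adjusted p = 0.440), and for 24 minus 6 months Kcns3 with -0.192 ± 0.140 (SE, adjusted p = 0.811) and Clcn3 with 0.140 ± 0.127 (SE, adjusted p = 0.841). The lowest Kcns3 value and the highest Clcn3 value of the oldest CR mice, -1.29 and 0.75, were those of the female mouse that also had the lowest Kcnh1.

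Markers of other cell types did not pass the test in these CR comparisons, but some had small p. Ttr, which the choroid plexus makes in bulk, gave -0.673 ± 0.252 (SE, adjusted p = 0.823) for 16 minus 6 months and 0.650 ± 0.264 (SE, adjusted p = 0.304) for 24 minus 16 months, while the other measured choroid plexus marker, Otx2, gave 0.419 ± 0.224 (SE, adjusted p = 0.955) and -0.171 ± 0.235 (SE, adjusted p = 0.740). Whether the genes listed as astrocyte markers mark only these cells in the cerebellum was not tested. Of this list, Glul gave -0.103 ± 0.106 (SE, adjusted p = 0.664) and Aldoc 0.192 ± 0.112 (SE, adjusted p = 0.446) in 24 minus 16 months. This was the comparison in which the glial pump subunit Atp1b2 had its smallest p. Tubb3, a tubulin of young neurons and 1 of 8 measured markers of immature cells, gave -0.385 ± 0.111 (SE, adjusted p = 0.224) there. Of these 8 markers 5 had differences above 0, with a median of 0.0186. The part of these cell types in the results was not tested.

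CR mice were set against AL mice at each age to ask whether diet changed these genes, and 0 of 16 passed the test. At 6 months, where 1.24% of features had p under 0.05 and 0 of the 16 genes did, Atp1b1 had the smallest p, with a range from 0.85 to 1.55 with a median of 1.34 in CR mice beside the AL values above. The difference was 0.161 ± 0.0909 (SE, adjusted p = 1.00), and Trpm7 gave 0.109 ± 0.0738 (SE, adjusted p = 1.00), Kcng1 0.181 ± 0.136 (SE, adjusted p = 1.00) and Kcnk6 0.169 ± 0.130 (SE, adjusted p = 1.00). Over all 16 genes the direction in CR mice of 6 months was mixed, before and after the correction for place, with a median difference of -0.0103 in the deposited values. At 16 months Atp1b1 ran from 0.22 to 1.40 with a median of 1.29 in CR mice and the difference had the other sign, -0.176 ± 0.0881 (SE, adjusted p = 0.651), where 7.67% of features had p under 0.05. The mouse at 0.22 was on an array that stood apart, and without it the difference was -0.0707.

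The other genes with the smallest p at 16 months were Trpm7 with -0.116 ± 0.0716 (SE, adjusted p = 0.730), Atp1b2 with 0.133 ± 0.0862 (SE, adjusted p = 0.752) and Chrna5 with 0.138 ± 0.137 (SE, adjusted p = 0.782). Without the arrays that stand apart these became 0.0190, 0.0755 and -0.0849. The highest Chrna5 value and the highest Atp1b2 value of the CR mice of 16 months came from 1 array, the male that also had the lowest Atp1b1.

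At 24 months Kcnh1 had the smallest p of the diet comparisons, with a CR minus AL difference of -0.251 ± 0.116 (SE, adjusted p = 1.00), where 1.74% of features had p under 0.05. The CR males of this age were 673 days old and the AL males 719 to 743 days, so diet and age cannot be told apart in males. The 9 AL mice ran from -0.86 to -0.39 with a median of -0.65, against -1.83 to -0.33 in the 8 CR mice, so the AL range lay within the CR range. The difference was -0.0450 in the early and -0.323 in the late arrays, -0.135 without the mouse at -1.83 and -0.245 after the correction for place. Kcng1 had the opposite sign. It ran from 0.05 to 0.62 with a median of 0.285 in CR mice against -0.34 to 0.46 in AL mice, a difference of 0.287 ± 0.146 (SE, adjusted p = 1.00). The difference of Kcng1 was above 0 in both array sets, 0.415 and 0.246, and by 0.129 after the correction for place. Kcnq1ot1 gave 0.189 ± 0.127 (SE, adjusted p = 1.00) and Trpm2 0.208 ± 0.158 (SE, adjusted p = 1.00), and for both genes the highest CR value came from the array of the group that stood apart.

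**Figure D3:**
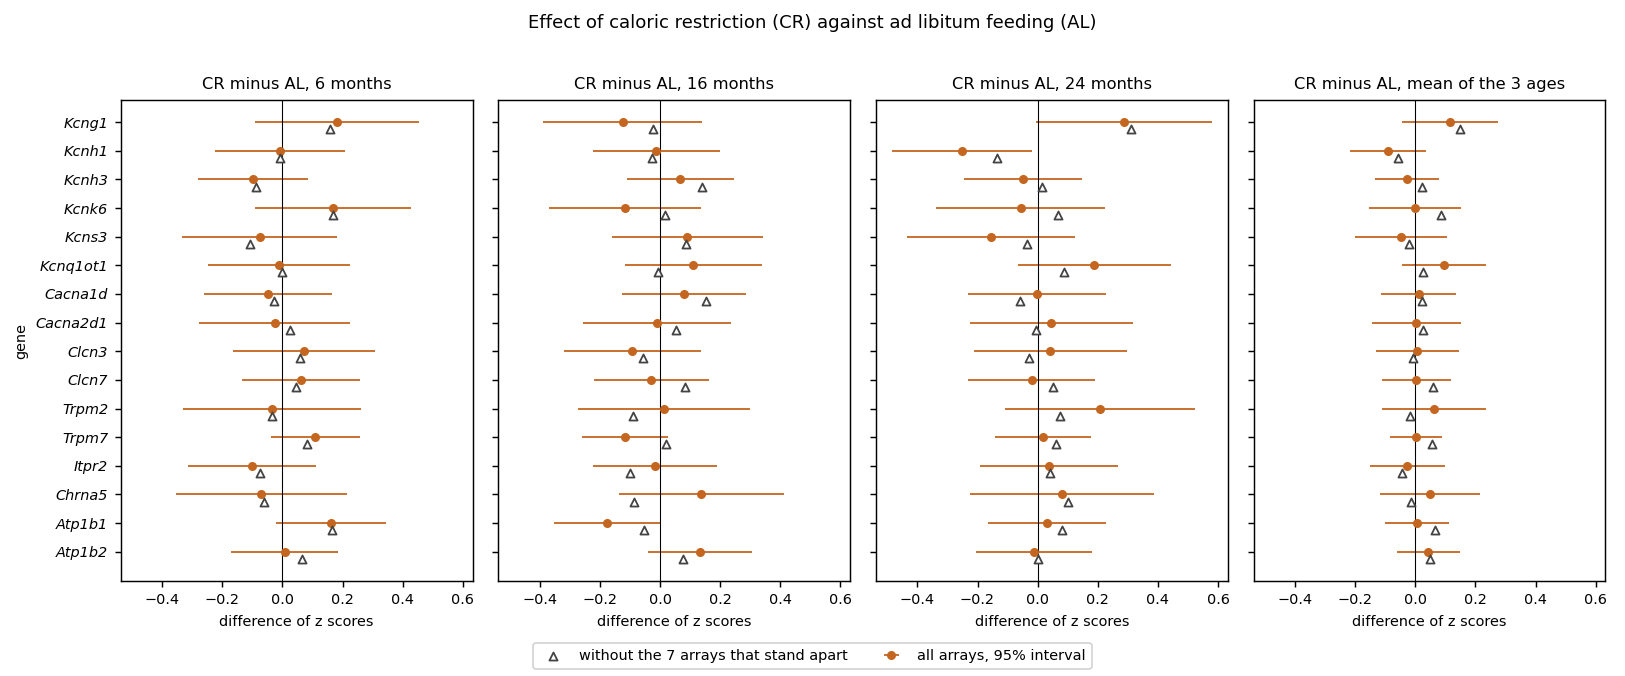
Differences of z scores between CR and AL mice at 6, 16 and 24 months and over the mean of these ages (horizontal axis, no unit) for each of the 16 genes (vertical axis): points are the differences over all arrays with their 95% intervals, and triangles the differences without the 7 arrays that stand apart. Only the interval of Kcnh1 at 24 months leaves 0, and its triangle lies nearer to 0.

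Averaged over 6, 16 and 24 months, the intervals of the diet effect reached 0.0868 to 0.173 z to either side, the narrowest of the design together with those of sex. The smallest p values were those of Kcng1 with 0.115 ± 0.0796 (SE, adjusted p = 1.00), Kcnh1 with -0.0905 ± 0.0633 (SE, adjusted p = 1.00), Kcnq1ot1 with 0.0957 ± 0.0691 (SE, adjusted p = 1.00) and Atp1b2 with 0.0430 ± 0.0522 (SE, adjusted p = 1.00). In this mean 2.14% of features and 0 of 16 genes had p under 0.05.

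Whether CR changed the difference between 24 and 6 months was tested as an interaction, and 0 of 16 genes had p under 0.05, beside 0.899% of features. The smallest p values belonged to Kcnh1 with -0.244 ± 0.158 (SE, adjusted p = 1.00), Kcnk6 with -0.226 ± 0.190 (SE, adjusted p = 1.00), Kcnq1ot1 with 0.201 ± 0.173 (SE, adjusted p = 1.00) and Trpm2 with 0.242 ± 0.216 (SE, adjusted p = 1.00). Without the 7 arrays that stand apart these were -0.127, -0.101, 0.0891 and 0.109. Intervals reached 0.217 to 0.433 z to either side, without adjustment for the number of features. A smaller difference in age course between the diets could not be told from 0, and a larger one can miss the adjusted test.

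Adult females and males were compared over both diets, and again 0 of 16 genes had p under 0.05, beside 1.08% of features. Cacna1d gave a female minus male difference of 0.0674 ± 0.0624 (SE, adjusted p = 1.00), Cacna2d1 0.0766 ± 0.0739 (SE, adjusted p = 1.00), Trpm7 -0.0371 ± 0.0433 (SE, adjusted p = 1.00) and Kcnh3 0.0407 ± 0.0533 (SE, adjusted p = 1.00). For Cacna1d the difference was 0.205 in the early and -0.00292 in the late arrays.

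Trpm7 and Atp1b1 were each measured by several probes, and the probes of a gene correlated weakly from mouse to mouse. Over 66 arrays the deviations of the 2 Atp1b1 probes correlated at 0.164, and those of the 6 pairs of Trpm7 probes at -0.241 to 0.292. The difference of 16 minus 6 months in AL mice came from 1 Atp1b1 probe, with 0.358 ± 0.147 (SE, adjusted p = 0.424), while the other gave 0.00900 ± 0.0682 (SE, adjusted p = 0.969). In CR mice the difference of 16 minus 6 months for Trpm7 was furthest from 0 in 1 probe, -0.488 ± 0.147 (SE, adjusted p = 0.789), and lay between -0.137 and -0.0526 in the other 3. In AL mice of 33 to 44 against 17 to 21 days, the Trpm7 probes gave differences from -0.390 to 0.170. None of these probes passed the adjusted test. Whether the probes read different transcripts of these genes was not tested.

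**Figure D4:**
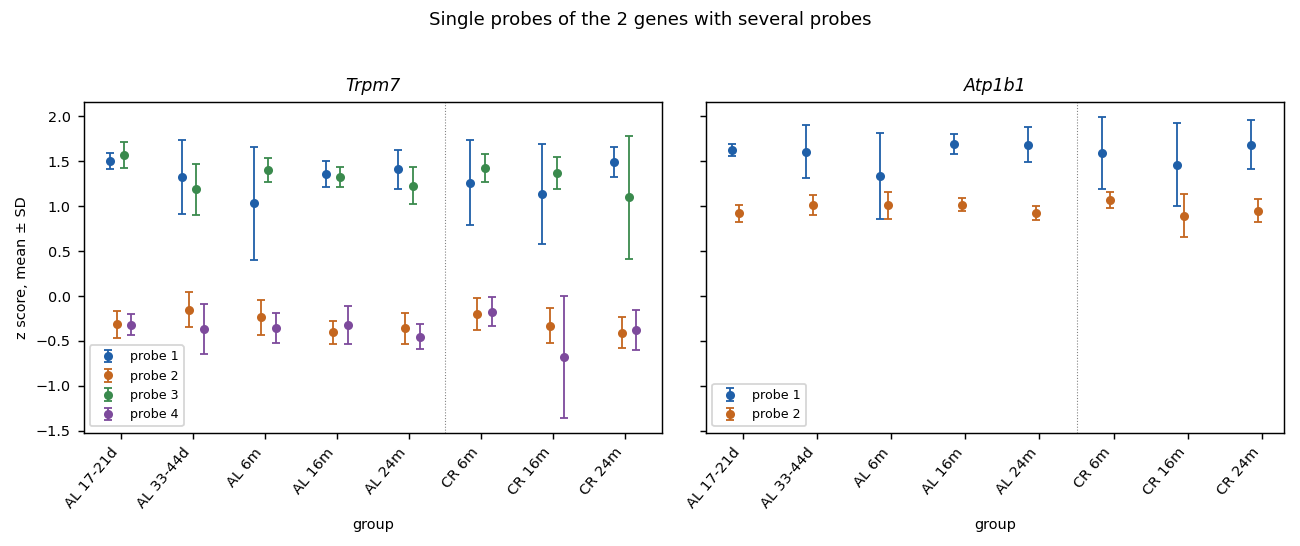
Mean z score of each group (vertical axis, no unit, bars are the standard deviation between mice) for the 4 probes of Trpm7 and the 2 probes of Atp1b1, by diet and age (horizontal axis). The bars of single probes widen in different groups, such as Trpm7 probe 1 at 6 months in AL mice, probe 3 at 24 months in CR mice and Trpm7 probe 4 at 16 months in CR mice.

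The spread between mice of the same group and array set was ordinary for this filter. Its standard deviation had a median of 0.246 z over the 16 genes, from 0.151 for Trpm7, the mean of 4 probes, to 0.327 for Trpm2, beside a median of 0.239 over all features. After the correction for place the medians were 0.168 and 0.160. The correction took away 90.5% of this variance for Chrna5, 81.2% for Kcng1, 76.1% for Kcnh3 and 75.7% for Itpr2, but 4.05% for Atp1b2 and 2.20% for Kcnh1. The groups of age, diet and sex together held a median of 22.0% of the variance of the 16 genes, beside 19.2% over all features. Fitting 16 group means to 66 arrays takes up a share of the variance even where no group differs. These shares are therefore not a measure of effects of age, diet or sex. For 15 of 16 genes the mouse farthest from its group was on an array that stood apart, beside 77.7% of features, and the exception was Clcn3. Late arrays lay below early ones for 14 of the 16 genes, beside 70.7% of features.

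**Figure D5:**
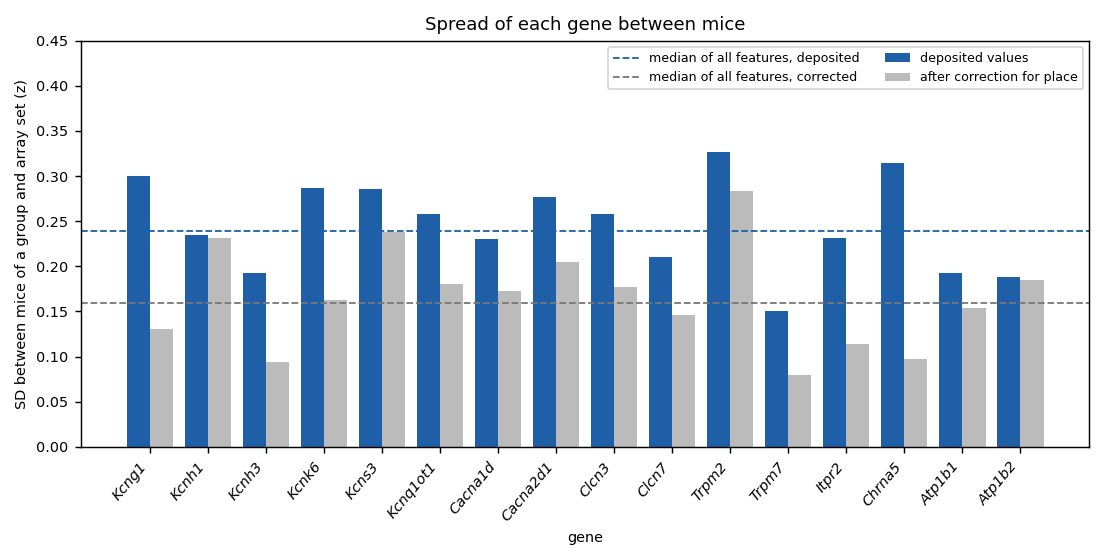
Standard deviation of the z score between mice of the same group and array set (vertical axis, z) for each of the 16 genes (horizontal axis), in the deposited values (blue bars) and after the correction for place (grey bars), with dashed lines at the medians of all features. The grey bar is far shorter for Chrna5 and Kcng1 and about as tall as the blue one for Kcnh1 and Atp1b2.

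Genes that work with these channels and pumps were read from lists written from general knowledge, and 0 of their measured members passed the test in any comparison, in either direction. Analysed here were 3 of 25 transmitter transporters, 4 of 24 ion exchangers and cotransporters, 9 of 44 auxiliary and scaffold proteins, 6 of 28 calcium binding and signalling proteins and 2 of 88 other channels and receptors. Over the 5 AL ages the smallest p values were those of Clic4, an intracellular chloride channel protein, with F = 3.44 (adjusted p = 0.538), and of Slc6a6, the taurine transporter, with F = 3.42 (adjusted p = 0.538). Clic4 gave 24 minus 6 months 0.421 ± 0.124 (SE, adjusted p = 0.160) in AL mice and 0.0166 after the correction for place. Slc6a6 gave 24 minus 6 months -0.243 ± 0.0961 (SE, adjusted p = 0.216), and -0.0861 after the correction. In the other lists the smallest p belonged to Slc12a2, the sodium-potassium-chloride cotransporter, with F = 2.48 (adjusted p = 0.604), Gnaq, a G protein subunit upstream of inositol trisphosphate, with F = 2.05 (adjusted p = 0.674), and Neto2, an auxiliary subunit of kainate receptors, with F = 1.17 (adjusted p = 0.848). The next gene of each list was Slc38a1 (F = 0.718, adjusted p = 0.939), Slc4a8 (F = 1.58, adjusted p = 0.753), Plcb3 (F = 1.29, adjusted p = 0.824), Cbln1 (F = 0.871, adjusted p = 0.921) and Panx1 (F = 0.584, adjusted p = 0.962).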

How the data were processed

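The study hybridized total RNA of single mouse cerebella to a cDNA filter. The deposited values are z scores: according to the methods, the authors took the spot intensities of each array to a z score by subtracting the array mean and dividing by the array's standard deviation. Whether a logarithm was taken first is not given in the sources used here, so no fold change was computed and the unit was treated as a score. Probes were named by the platform annotation (4788 probes with 1 symbol, 212 with several, 3448 with none), and all 20 probes of the 16 genes matched RefSeq genes of GRCm38.p6, the build of the coordinates. Replicates are separate mice by the labels, and the number of arrays limits the precision.

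Probes of a gene were averaged, and linear models of 7565 features (limma 3.58.1 under R 4.3.3) had 1 mean for each of 16 groups of diet, sex and age, sexes weighted equally, and the array set as a block; p-values were adjusted by Benjamini-Hochberg over all features. The place correction subtracted the median deviation of probes within 2 zones, on a layout of 16 by 24 zones inferred from the row order. Tables and plots used Python 3.11.15, numpy 2.4.6, pandas 2.3.3 and matplotlib 3.10.9. The fit was run on simulated data with independent noise, without arrays that stand apart or deviations shared by adjoining probes. That run therefore does not show how the fit behaves where these are present, as they are here. The genes named in each comparison are those with an adjusted p under 0.05 and otherwise those with the smallest p, up to 4, together with the 12 smallest p of the F test over the AL ages. In each list of related genes the 2 with the smallest p of that test are named. The gene families and lists were chosen with earlier results of these data known. Alternatives were no block, early or late arrays only, no arrays that stand apart, array weights, quantile or interquartile scaling, the place correction, features with a mean z above 0 only, single probes, a z ratio rule after the study's selection (a later step of which was not applied) and leaving out each mouse. A block by round of running numbers was chosen after seeing the data.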

Additional observations from a re-analysis of the deposited data

Results flagged for a closer look

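In 128 groups of 1 gene in mice of 1 diet and age, 19 values lay far from the rest of their group by Dixon's criterion. For independent values from a normal distribution, chance gives such a value in about 1 of 20 groups. The 128 groups are 16 genes read on the same 66 arrays, so they are not independent. The 19 values therefore cannot be set against that rate. The same count was not made over all features. Of the 19 values, 17 came from arrays that stand apart, and each is given below by mouse (numbered in the order of the samples within a group of diet, sex and age) with the nearest other value of its group.

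The CR male 5 of 16 months held 7 of them. It was the lowest of its group for Atp1b1 (0.22 against 1.16), Clcn7 (0.10 against 0.84), Kcng1 (-0.76 against 0.05) and Kcnk6 (0.40 against 1.0). It was the highest for Atp1b2 (0.66 against 0.12), Chrna5 (0.99 against 0.10) and Trpm2 (-0.40 against -1.15). After the correction for place its Chrna5 value was -0.206 and its Kcnk6 value 0.988. Another CR male of 16 months, male 2, had the highest Kcnh1 of the group (-0.02 against -0.46).

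The CR female 2 of 24 months held 5. It was the lowest for Atp1b1 (0.875 against 1.26), Kcnk6 (0.16 against 1.19) and Kcns3 (-1.29 against -0.38), and the highest for Clcn3 (0.75 against 0.23) and Trpm2 (-0.19 against -1.20). After the correction its Kcns3 value was -0.661 and its Trpm2 value -0.348. Its Atp1b1 value fell to 0.438, farther from the deposited values of the group, so the correction did not bring every flagged value nearer.

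The CR female 5 of 6 months held 4, as the lowest for Atp1b1 (0.85 against 1.28), Clcn3 (-0.78 against -0.19), Kcng1 (-0.71 against 0.03) and Kcnk6 (0.55 against 1.11). On arrays that did not stand apart, Atp1b2 was lowest in the AL male 4 of 6 months (-0.78 against -0.23) and Chrna5 in the AL male 2 of 17 to 21 days (-0.90 against -0.39). After the correction for place these values were -0.614 and -0.366. No cause was tested. For 48 age effects read in both diets against the median of the reference age, 0 had every mouse of 1 diet above it and every mouse of the other below it. So strict a rule is seldom met, and it was not applied to all features, so the 0 does not show that the diets share an age course.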

How the results depend on the processing

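With 16 comparisons and 16 genes, 0 genes passed the adjusted test under any of the alternatives that use it, and leaving out 1 mouse at a time gave 0 to 0 genes. The labels give no replicate numbers and do not say what the running number marks, but it passes through the groups in 5 rounds. Of the 7 arrays that stand apart, 3 lie in the second round and 4 in the fifth. A replicate block by round beside the array set, chosen after seeing the data, called 0 genes and 0 features in every comparison and changed no sign. The differences of Kcnh1 in CR mice became -0.150 for 24 minus 6 months and -0.087 for 24 minus 16 months. Over all features, array weights called 13 of 7565 (0.172%) for CR minus AL at 16 months and 1 (0.0132%) each for 24 minus 16 months in AL mice and the F test over ages, and the late arrays alone 1 each for 33 to 44 minus 17 to 21 days and 6 months minus 33 to 44 days. A z ratio rule after the study's selection, with unadjusted p, counted 1 gene in 4 comparisons: Cacna1d for 33 to 44 minus 17 to 21 days and for 6 months minus 33 to 44 days, and Kcng1 for 16 minus 6 and for 24 minus 16 months in AL mice. Of 2581 values of 72 gene effects under the alternatives, 25 in 18 effects changed sign, none of them with a mouse left out, and the causes were not tested. In the early arrays only, they were Trpm7 0.070 and Clcn7 0.025 (33 to 44 minus 17 to 21 days), Trpm7 0.0188, Kcng1 0.0675 and Itpr2 -0.085 (6 months minus 17 to 21 days), Itpr2 -0.13 (6 months minus 33 to 44 days), Kcnh1 0.045 (24 minus 16 months, CR), Clcn3 -0.12 (24 minus 6 months, CR), Chrna5 -0.0375 (CR minus AL, 16 months), and Kcnh1 0.0525 and Trpm2 -0.0325 (interaction). In the late arrays only, they were Cacna2d1 0.0217 (16 minus 6 months, AL) and Cacna1d -0.00292 (female minus male). After the correction for place, they were Clcn3 0.0579 (6 months minus 33 to 44 days), Kcnh3 0.0256 and Atp1b1 -0.00868 (24 minus 6 months, AL), Clcn3 -0.0248 (24 minus 6 months, CR), and Trpm7 0.00306 and Atp1b2 -0.0173 (CR minus AL, 16 months). Clcn3 (24 minus 6 months, CR), Trpm7 and Chrna5 (CR minus AL, 16 months) gave -0.0307, 0.0190 and -0.0849 without the arrays that stand apart and -0.0198, 0.0154 and -0.136 with array weights. The early arrays hold 2 to 4 mice of each group, and those of 17 to 21 days are females and those of 33 to 44 days males, so age and sex cannot be told apart in the early values of Trpm7 and Clcn7 between these ages.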
